A study of Homo sapiens with 30 samples.

Results

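The comparison reported here is the change with time of the effect of titanium dioxide nanobelts (TiO2-NB, flat ribbon-like particles) at 100 ug/ml on small airway epithelial (SAE) cells. It is the interaction of particle and time: the difference between exposed and unexposed cultures at 24 h minus the same difference at 1 h. It uses 12 of the 30 arrays of the study, 3 in each of 4 groups: unexposed cells at 1 h, cells with 100 ug/ml TiO2-NB for 1 h, unexposed cells at 24 h and cells with 100 ug/ml TiO2-NB for 24 h. Of 11963 genes tested, 263 had an interaction past the threshold, which is 2.20%. The other 18 arrays hold TiO2-NB at 10 ug/ml and multi-walled carbon nanotubes (MWCNT) at 10 or 100 ug/ml at the same times. The SAE cells are human, came from a commercial supplier and, per the labels, were grown in that supplier's airway medium, detached with trypsin, plated in flasks and given the particles in the medium. The labels enter SAE as a cell line and count the 3 samples of a group as biological replicates. They do not say whether the replicates differ in donor, passage or day, so the p-values measure the spread between these samples.

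Airway epithelial cells meet inhaled particles at their surface. Contact with a particle, like growth factors, stretch or plating, can switch on immediate early genes, transcription factors whose RNA appears within minutes and decays quickly. Other genes, such as those of feedback inhibitors of the ERK kinase pathway, metal-binding proteins, junctions and channels, may respond at other times. Between the times an effect may be lost by 24 h, gained by 24 h, reversed in sign or kept.

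Values are log2 expression per probe set, so a difference of 1 is a 2-fold difference. A gene was called at an adjusted p under 0.05 in limma (moderated test on all 30 arrays, Benjamini-Hochberg over all genes), and "rose" or "fell" refers to such calls. Lost means called at 1 h, not at 24 h, with the interaction called toward 0. Gained means called at 24 h, not at 1 h, with the interaction called in the direction of the 24 h effect. Reversed genes were called at both times in opposite directions with the interaction called, and kept genes were called at both times in the same direction. At a single time, with 3 arrays against 3, permuting 1 gene's values exactly yields no two-sided p below 0.1. Calls at 1 h or 24 h therefore rest on limma's pooled variance, which the calls of the interaction use too.

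The cells carried the markers of epithelium in part. KRT18, KRT7 and KRT8, keratins of simple epithelium, had means of 13.24, 12.77 and 12.01 in the 1 h controls, and CDH1, the adherens junction cadherin, 8.03. KRT5, a keratin of basal cells, lay near the median of the table (7.1788) at 7.29, and EPCAM (7.05), KRT19 (6.10) and KRT14 (4.03) lay below it. Of 14 immune cell markers 1 (CD14) was above the median, and of 9 endothelial markers none was. The pan-leukocyte gene PTPRC was at 3.50. Among alveolar markers 5 of 9 were above it, of which LAMP3 (10.69) and CAV1 (11.81) were well above and the surfactant genes SFTPC (7.68) and SFTPB close to it. Of 11 fibroblast markers 4 were above it, led by VIM (13.12), which cultured epithelium also makes. The array medians were close, from 7.1529 to 7.2051. Replicates correlated at 0.9943 to 0.9987 across genes, and the lowest pair was control replicates 1 and 2 at 24 h. In bulk RNA, fewer cells of a type and less RNA per cell cannot be told apart.

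In all, 120 interactions were higher (1.00%) and 143 lower (1.20%), and 2105 genes had an unadjusted p under 0.05. At 1 h 254 genes were called (2.12%), 208 higher (1.74%) and 46 lower (0.385%). By 24 h 1577 were called (13.2%), 514 higher (4.30%) and 1063 lower (8.89%), and 40 genes were called at both times. The effects fell into 52 lost genes, 188 gained, 8 reversed, 32 kept and 11 with a difference between the times but no call at either. A further 162 genes called at 1 h and 1349 called at 24 h stayed undecided, because their interaction did not pass. So most genes called at 24 h had no shown difference from their 1 h effect. The call of the interaction passed in all 12 fits that left out 1 array for 101 of the 263 genes. Higher interactions numbered 58 without exposed replicate 3 at 1 h, 60 without exposed replicate 3 at 24 h, 64 without control replicate 2 at 1 h and 67 without exposed replicate 1 at 24 h. Lower ones ranged from 79 without control replicate 2 at 1 h to 252 without control replicate 1 at 24 h. With the arrays scaled by cyclic loess, 55.1% of the 24 h calls were rises in place of 32.6%, so the balance of rises and falls at 24 h depends on the scaling. When the variance was estimated from the 12 arrays alone, 18 interactions were higher and 28 lower, with 22 lost genes, 18 gained, 0 reversed and 1 kept.

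**Figure D1:**
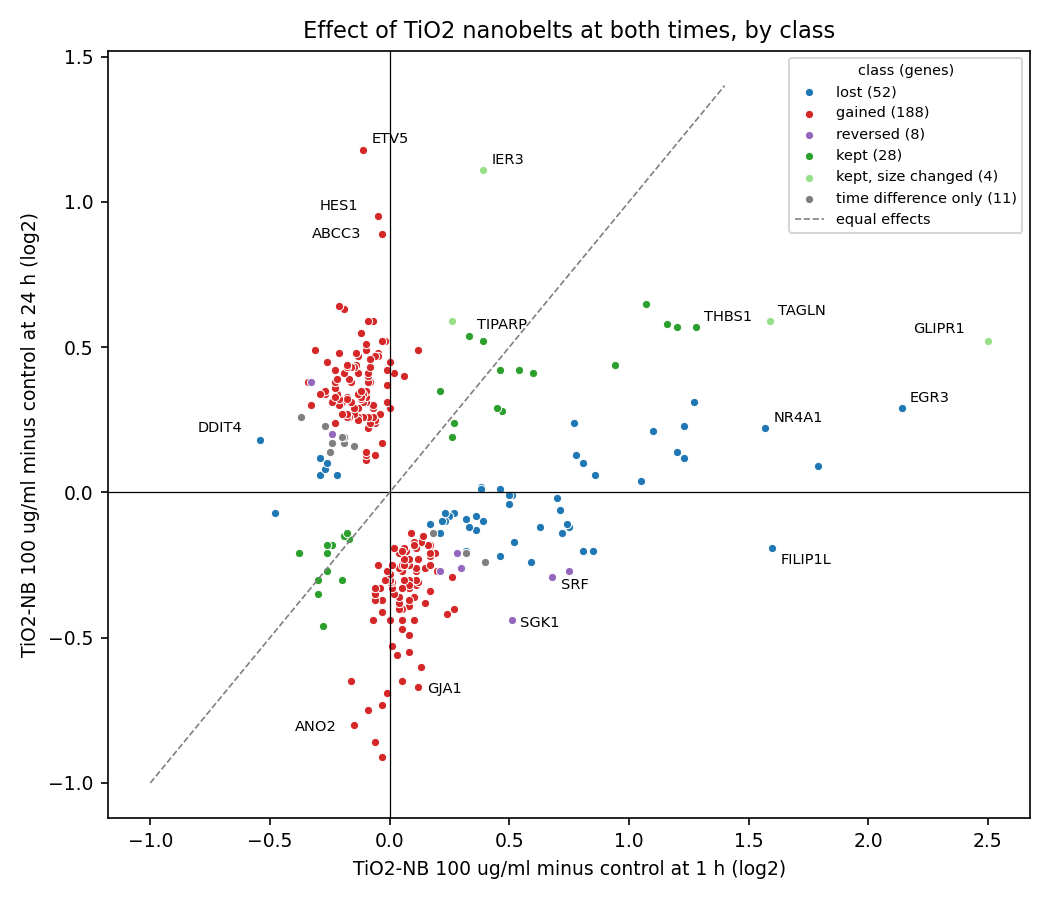
Each point is a gene of a class, placed by its TiO2-NB effect at 1 h (x axis, log2) and at 24 h (y axis, log2); colours give the class, and genes on the dashed line have equal effects. Lost genes lie along the x axis out to EGR3 at 2.14, gained genes along the y axis up to ETV5 at 1.18, and the 8 reversed genes in the upper left and lower right.

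Effects lost by 24 h were mainly rises: 45 genes rose at 1 h and 7 fell. The rises included immediate early transcription factors, regulators of the actin cytoskeleton and membrane receptors, with a median 1 h effect of 0.59 and a median 24 h effect of -0.07. In 43 of the 45, expression fell from 1 to 24 h in the exposed cells (14.8% of all genes did). In 34 it fell in the controls too, while 3 rose there (12.4% and 19.3% of all genes). Control samples fell by a median of 0.38 and exposed samples by 1.25. At 24 h exposed and unexposed arrays of most of these genes overlapped, with no overlap in 9 of 45 (31.7% of all genes had none at 24 h). Lost genes numbered 33 without control replicate 2 at 1 h and 159, 150 of them rises, without control replicate 1 at 24 h. Of the 52, 44 were among those 159.

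Among the transcription factors, EGR3, a zinc finger factor induced by growth factor and calcium signals, had the largest lost effect. Its 1 h controls read 9.35, 8.72 and 8.63 and the 1 h exposed arrays 11.18, 10.83 and 11.11, while at 24 h the controls read 4.08, 3.70 and 4.17 and the exposed arrays 4.18, 4.51 and 4.12. The exposed arrays were all higher at 1 h, and at 24 h the groups overlapped at a level below the median of the table. EGR3 rose 4.41-fold at 1 h (2.14 ± 0.17 (SE), limma adjusted p = 1.86e-08), its 24 h effect was 0.29 ± 0.17 (adjusted p = 0.267), and the interaction was -1.85 ± 0.25 (adjusted p = 9.28e-05). NR4A1, an orphan nuclear receptor of the same immediate early class, read 8.70, 8.78 and 8.69 in the 1 h controls and 10.23, 10.49 and 10.14 after exposure, then 7.30, 7.48 and 7.39 against 7.60, 7.62 and 7.60 at 24 h. The groups stood apart at both times, but by 1.57 ± 0.09 at 1 h and by 0.22 ± 0.09 at 24 h (adjusted p = 0.123), with an interaction of -1.35 ± 0.13 (adjusted p = 1.12e-06). Its 2 other probe sets above the median gave interactions of -0.47 and 0.16, so neither shared the size of this difference and the second did not share its direction.

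KLF7, KLF6 and KLF2, Kruppel-like zinc finger factors that bind GC-rich promoters, lost their rises as well. KLF7 read 8.26, 8.25 and 8.44 in the 1 h controls and 9.38, 9.36 and 9.36 in the exposed cells, and at 24 h 7.80, 8.04 and 8.16 against 8.01, 8.06 and 8.06. The exposed arrays were all higher at 1 h and lay within the control range at 24 h. This was a 2.07-fold rise at 1 h that was 1.03-fold at 24 h (interaction -1.01 ± 0.10, limma adjusted p = 8.97e-07). KLF6 rose by 1.23 ± 0.11 and KLF2 by 0.59 at 1 h, with interactions of -1.0 ± 0.16 (adjusted p = 0.000708) and -0.83 (adjusted p = 0.0033). The AP-1 subunit FOSB rose by 1.27 ± 0.14 with an interaction of -0.96 ± 0.20 (adjusted p = 0.0116). ATF3, a stress-induced factor of the same leucine zipper class, rose by 0.86 ± 0.11 with an interaction of -0.80 ± 0.16 (adjusted p = 0.0064).

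Of 31 measured early transcription factors, 13 rose and none fell at 1 h, 9 rose and 1 (SRF) fell at 24 h, and the interaction was lower in 8 and higher in 2. Over all genes 1.74% rose and 0.385% fell at 1 h, and 4.30% rose and 8.89% fell at 24 h. Of all interactions 1.20% were lower and 1.00% higher. The list's median interaction was -0.03, against -0.01 over all genes, so the called members moved and the middle of the list did not. Over time in the controls, 30 of the 31 fell, with a median of -1.70 (over all genes 12.4% fell, 19.3% rose and the median was -0.01). The 8 lower interactions were EGR3, NR4A1, FOSB, ATF3, KLF2, KLF6, KLF7 and SRF. FOS, JUN, JUNB, MAFF, KLF10, BHLHE40 and ID1 were called at 24 h and not at 1 h, yet their interactions did not pass. FOS, the partner of JUN in AP-1, had effects of 0.11 at 1 h and 0.48 at 24 h (adjusted p = 0.799 and 0.00937), with an interaction of 0.36 (adjusted p = 0.238). EGR4, NR4A3, FOSL1 and FOSL2 were called at 1 h without a called interaction. Calls at 1 h numbered 9 without control replicate 1 or without exposed replicate 1 of that time, and the 8 lower interactions became 9 without exposed replicate 3 at 24 h. On the 12 arrays alone 6 interactions were lower, 8 members rose at 1 h and 6 at 24 h.

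**Figure D2:**
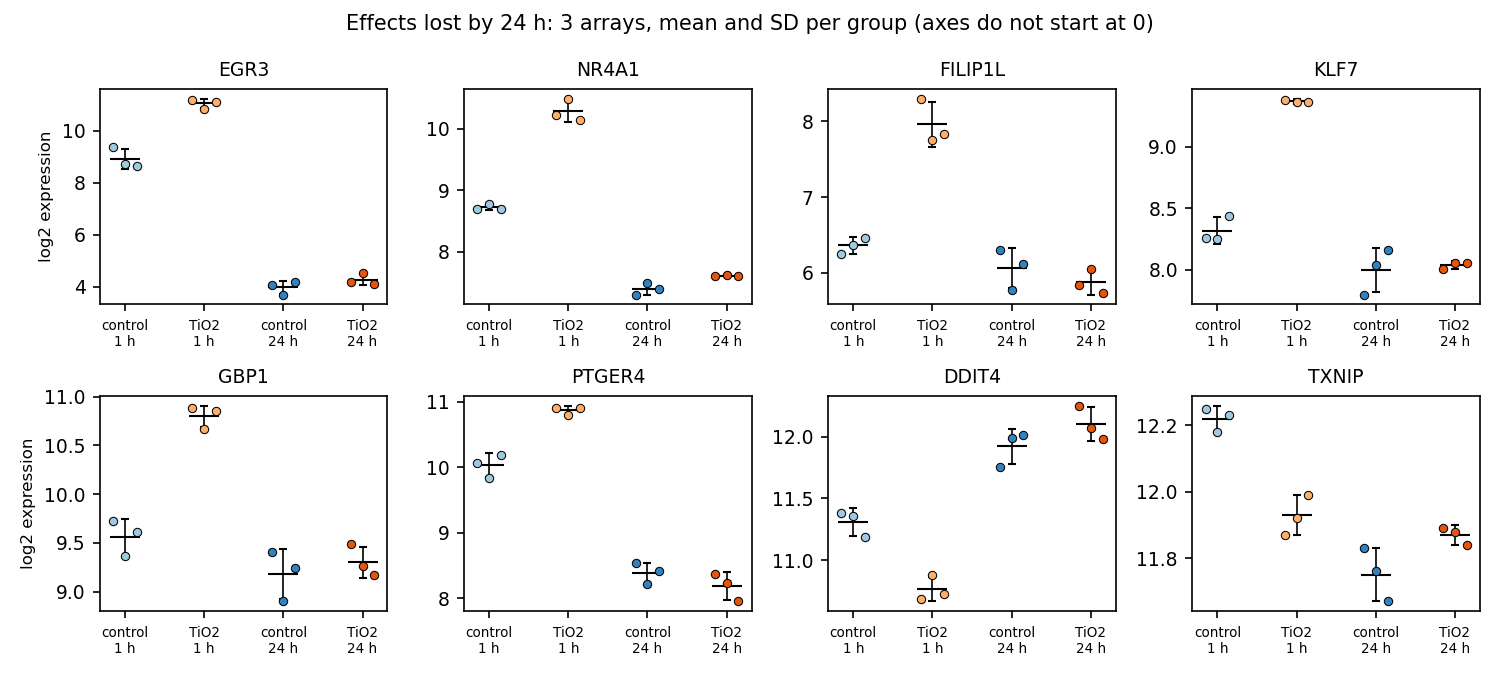
Log2 expression (y axis, own range for each gene, not starting at 0) of 8 genes with a lost effect in the 4 groups; points are the 3 arrays, horizontal bars the mean and whiskers the SD. Exposed arrays of the first 6 genes sit above the controls at 1 h and near or among them at 24 h, whereas DDIT4 and TXNIP start below the controls.

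Genes of the actin cytoskeleton and of its transcriptional regulators SRF and YAP formed the other main block of lost rises. Among them FILIP1L, RND3 and TPM4 carried the CArG box, the 10-base A/T-rich motif flanked by C and G pairs that SRF binds. GBP1, a lost rise outside this block, carried it too. Matches were sought in the RefSeq promoter table (build GRCh38.p14, 250 bases before to 50 after the start). The stretches of 4 lost rises and of SRF itself, a reversed gene, are shown because they place that motif beside the genes. The motif is in capitals, 5′ to 3′ on the gene's strand, and all stretches end before the transcription start. FILIP1L lies at chr3:99876184-99876273 (minus strand), RND3 at chr2:150487718-150487807 (minus), TPM4 at chr19:16067325-16067414 (plus), GBP1 at chr1:89065325-89065414 (minus) and SRF at chr6:43171199-43171268 (plus).
FILIP1L: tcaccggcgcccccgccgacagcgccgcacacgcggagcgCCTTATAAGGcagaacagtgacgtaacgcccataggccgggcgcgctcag
RND3: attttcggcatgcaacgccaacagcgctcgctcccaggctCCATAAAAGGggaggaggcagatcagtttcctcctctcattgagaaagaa
TPM4: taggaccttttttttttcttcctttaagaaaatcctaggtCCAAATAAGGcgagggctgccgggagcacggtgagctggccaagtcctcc
GBP1: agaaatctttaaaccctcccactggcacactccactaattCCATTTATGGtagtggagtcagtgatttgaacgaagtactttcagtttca
SRF: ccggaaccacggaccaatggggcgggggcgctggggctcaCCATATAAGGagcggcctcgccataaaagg
A CArG match was present in 5 of the 38 lost rises with a promoter in the table (13.2%: these 4 and SINHCAF), in 0 of 69 gained rises, in 1 of 72 gained falls (AQP3) and in 1.28% of the 9563 tested genes with a promoter. SRF held 2 matches, the second of which ends its stretch in lower case. Over all 27305 promoters the share was 1.29%. The motif reads the same on both strands. A match describes these letters in this window and is no measured binding. The CRE motif (TGACGTCA) was in 1 of the 38 and the AP-1 motif (TGANTCA) in 1 of the 38, against 3.06% and 5.43% of the tested genes.

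FILIP1L, a coiled-coil protein related to the filamin A interacting protein, read 6.25, 6.36 and 6.46 in the 1 h controls and 8.30, 7.75 and 7.83 in the exposed cells, and at 24 h 6.30, 5.77 and 6.12 against 5.84, 6.05 and 5.73. Its exposed arrays were all higher at 1 h and overlapped the controls at 24 h. That is a 3.03-fold rise at 1 h and an interaction of -1.79 ± 0.20 (limma adjusted p = 7.13e-06). ANKRD1, a nuclear ankyrin repeat protein used as a readout of YAP, went from 5.56, 5.86 and 6.57 to 7.98, 7.35 and 8.01 at 1 h. At 24 h it read 5.43, 4.68 and 5.26 in controls and 5.28, 5.19 and 5.17 in exposed cells, with all arrays below the median of the table. Its 3.45-fold rise was lost with an interaction of -1.70 ± 0.32 (adjusted p = 0.00418).

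The actin-coating tropomyosins TPM1 and TPM4 rose by 0.46 and 0.77 at 1 h and had interactions of -0.45 (adjusted p = 0.00424) and -0.53 (adjusted p = 0.0241). Vinculin (VCL), which ties focal adhesions to actin, rose by 0.50 and had an interaction of -0.51 (adjusted p = 0.000588). EPPK1, which binds keratin filaments, rose by 1.20 ± 0.13 with an interaction of -1.06 ± 0.18 (adjusted p = 0.00169). RND3, which loosens actin stress fibres, read 11.11, 11.33 and 11.30 in the 1 h controls and 12.05, 11.78 and 12.11 after exposure, without overlap. At 24 h its controls read 10.57, 10.44 and 10.61 and its exposed arrays 10.51, 10.51 and 10.26, which overlap, and its interaction was -0.85 ± 0.14 (adjusted p = 0.00078). Other lost rises of this kind were LIMA1 and CDC42EP3, an actin binder and an effector of Cdc42, with interactions of -0.76 and -0.73.

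Of 25 measured genes of YAP, SRF and the actin cytoskeleton, 14 rose and none fell at 1 h, beside 1.74% and 0.385% of all genes. At 24 h 4 rose and 1 (TPM2) fell, beside 4.30% and 8.89% of all genes. The interaction was lower in 7 and higher in 0 (1.20% and 1.00% of all genes), with 12 at an unadjusted p under 0.05 (2105 of all 11963). The list's median interaction was -0.23, beside -0.01 over all genes, and its median effect was 0.34 at 1 h and 0.07 at 24 h. The 24 h rises numbered 1 without control replicate 1 at 24 h, 0 without exposed replicate 1 at 24 h, 1 without exposed replicate 2 and 2 without control replicate 2 of that time, and 6 after cyclic loess. The lower interactions numbered 5 to 8 when 1 array was left out. On the 12 arrays alone 3 interactions were lower, 10 members rose at 1 h and 0 at 24 h. CCN1, AMOTL2, MYH9, FHL2 and CNN2 rose at 1 h but their interactions did not pass, so a loss was not shown for them.

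Lost rises also included signalling molecules. PTGER4, the EP4 receptor of prostaglandin E2, read 10.06, 9.83 and 10.19 in the 1 h controls and 10.91, 10.80 and 10.91 in the exposed cells, and at 24 h 8.53, 8.21 and 8.41 against 8.37, 8.23 and 7.95. The exposed arrays were higher at 1 h without overlap and overlapped the controls from below at 24 h (interaction -1.05 ± 0.16, limma adjusted p = 0.000554). GBP1, an interferon-inducible GTPase, read 9.72, 9.36 and 9.61 and then 10.88, 10.67 and 10.85 at 1 h, a 2.35-fold rise, and at 24 h 9.41, 8.90 and 9.24 against 9.49, 9.26 and 9.17, which overlap. Its interaction was -1.11 ± 0.18 (adjusted p = 0.00108), and its other probe set gave -1.66. It was the 1 member of 27 measured interferon response genes with a called interaction, beside 2.20% of all genes. In that list 7 were at an unadjusted p under 0.05 (2105 of all 11963 genes), and the list's median was 0.00. CITED2, a co-regulator that competes with hypoxia-inducible factor for its co-activators, had an interaction of -1.01 ± 0.16 (adjusted p = 0.000891). KDM3A, a histone demethylase, and PFKFB3, which drives glycolysis, were the 2 of 28 hypoxia and glycolysis genes called, at -0.54 and -0.46 (2.20% of all genes were called). The call of PFKFB3 (adjusted p under 0.05) held in 2 of the 12 fits without 1 array. PELO, which frees stalled ribosomes, had an interaction with one of the smallest errors of the lost genes: it read 9.84, 9.75 and 9.85 and then 10.54, 10.51 and 10.63 at 1 h, and its interaction was -0.86 ± 0.06 (adjusted p = 9.43e-09).

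The 7 falls lost by 24 h were DDIT4, TXNIP, SLC30A1, HOMER3, KEL, CCDC85B and ABHD11, of which KEL lay below the median of the table. DDIT4, an inhibitor of the growth kinase mTORC1, read 11.38, 11.36 and 11.19 in the 1 h controls and 10.69, 10.88 and 10.73 in exposed cells, and at 24 h 11.75, 11.99 and 12.01 against 12.25, 12.07 and 11.98. Exposed arrays were all lower at 1 h and overlapped the controls from above at 24 h, with an interaction of 0.73 ± 0.14 (limma adjusted p = 0.00467). TXNIP, a thioredoxin-binding protein that limits glucose uptake, read 12.25, 12.18 and 12.23 against 11.87, 11.92 and 11.99 at 1 h, a fall of 1.23-fold, and 11.83, 11.76 and 11.67 against 11.89, 11.88 and 11.84 at 24 h. Its groups did not overlap at either time, lower at 1 h and slightly higher at 24 h, where the effect of 0.12 did not pass (adjusted p = 0.0774). The zinc exporter SLC30A1 fell by 0.48 ± 0.06 at 1 h and had an effect of -0.07 ± 0.06 at 24 h (adjusted p = 0.486, interaction 0.41 ± 0.09, adjusted p = 0.0171). ABHD11 (interaction 0.28) kept its call in 5 and CCDC85B (0.34) in 8 of the 12 fits without 1 array, and the mean over all probe sets turned CCDC85B to -0.03. HOMER3 had an interaction of 0.35, but its 1 other probe set above the median gave -0.03.

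Effects gained at 24 h were more evenly split: 101 genes were higher and 87 lower in exposed cells. After cyclic loess the rises made 65.9% of the gained genes in place of 53.7%, and they made 31.1% when dim genes were left out. Of the 101 rises 54 had a highest group mean above the median of the table, so 47 were dim genes, whereas 80 of the 87 falls were above it. In the controls 40 of the 101 rises fell and 4 rose from 1 to 24 h, and in the exposed cells 73 rose and 5 fell. For the falls, controls rose in 41 and fell in 20, and exposed cells rose in 5 and fell in 50. Over all genes, controls rose in 19.3% and fell in 12.4%, and exposed cells rose in 17.8% and fell in 14.8%. Gained genes numbered 81 without exposed replicate 3 and 101 without exposed replicate 1 at 24 h, 90 without exposed replicate 3 at 1 h, and 96 and 111 without control replicates 2 and 1 at 1 h.

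The largest gained rise was of ETV5, an ETS transcription factor induced by ERK signalling. It read 6.54, 6.41 and 6.98 in the 1 h controls, 6.59, 6.44 and 6.56 in the 1 h exposed cells, 6.19, 6.13 and 6.12 in the 24 h controls and 7.43, 7.29 and 7.27 in the 24 h exposed cells. Only the 24 h exposed arrays stood clear of the others, above all 9 of them. The effect was -0.11 ± 0.10 at 1 h and 1.18 ± 0.10 at 24 h, a 2.27-fold rise, and the interaction was 1.30 ± 0.14 (limma adjusted p = 2.75e-06). SPRED2, an inhibitor of RAS-ERK signalling, read 9.36, 9.14 and 9.53 against 9.23, 9.12 and 9.12 at 1 h, and 8.15, 8.37 and 8.33 against 8.96, 8.84 and 8.92 at 24 h. Its controls dropped by 1.06 with time and the exposed cells by 0.25, so the 24 h groups stood apart (interaction 0.81 ± 0.12, adjusted p = 0.000335). The mean of all its probe sets gave 0.24, which did not pass. SPRY4, another ERK feedback inhibitor, had an interaction of 0.80 ± 0.17 (adjusted p = 0.012).

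Of 21 measured genes of ERK feedback and mRNA decay, 3 rose at 1 h, 8 rose and 1 (RGS2) fell at 24 h, and the interaction was higher in 2 (SPRED2 and SPRY4) and lower in 1 (PLK2, a stress-induced kinase, at -0.70). Over all genes 1.74% rose at 1 h, and 4.30% rose and 8.89% fell at 24 h. Of all interactions 1.00% were higher and 1.20% lower. The list's median interaction was 0.09, beside -0.01 over all genes, and 20 of the 21 fell over time in the controls (12.4% of all genes). DUSP6, the phosphatase that inactivates ERK, had effects of 0.12 at 1 h and 0.71 at 24 h, but its interaction of 0.59 did not pass (adjusted p = 0.102). The 3 rises at 1 h were 1 without control replicate 2 or without exposed replicate 3 of that time, and the 8 at 24 h were 4 without exposed replicate 1 at 24 h. On the 12 arrays alone 0 rose at 1 h and 4 at 24 h, with 1 interaction higher and 0 lower.

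HES1, a repressor induced by Notch, showed the interaction on a steep decline. Its 1 h controls read 10.44, 10.21 and 10.70 and the exposed arrays 10.33, 10.54 and 10.33, whereas at 24 h the controls read 5.65, 5.89 and 5.64 and the exposed arrays 6.63, 6.59 and 6.81. The groups overlapped at 1 h and stood apart at 24 h, both far below 1 h and below the median of the table. Controls fell by 4.72 and exposed cells by 3.72, which gives the interaction of 1.01 ± 0.15 (limma adjusted p = 0.000325). ABCC3, a membrane pump that exports conjugated compounds, was steady by comparison. It read 8.33, 8.27 and 8.30 against 8.22, 8.28 and 8.30 at 1 h, and 7.93, 7.86 and 7.77 against 8.75, 8.71 and 8.77 at 24 h. The 24 h exposed arrays were the highest of all 12, and the interaction of 0.92 ± 0.08 was among the firmest (adjusted p = 5.62e-08). Its other probe set gave 0.62. CHST15, a sulfotransferase of chondroitin sulfate, had an interaction of 0.85 ± 0.18 (adjusted p = 0.00955). EPOR, the erythropoietin receptor, had one of 0.65 ± 0.16, called in 7 of the 12 fits without 1 array (not without control replicate 1 or exposed replicate 3 at 1 h, nor without control replicate 2 or exposed replicates 1 or 3 at 24 h), and of 0.21, which did not pass, with the mean of all its probe sets.

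Of 8 measured metallothioneins, small cysteine-rich proteins that bind zinc and copper, 4 gained a rise (MT1X, MT2A, MT1G and MT1H), and the interactions of MT1E (0.42), MT1F (0.56), MT1M (-0.04) and MT3 (0.30) did not pass in limma. MT1X read 12.76, 12.65 and 12.72 in the 1 h controls and 12.52, 12.56 and 12.43 in exposed cells, and at 24 h 11.69, 12.27 and 12.16 against 12.65, 12.49 and 12.40. Exposed arrays were all lower at 1 h and all higher at 24 h, and control replicate 1 was the lowest at 24 h. The 1 h effect of -0.21 ± 0.11 did not pass (limma adjusted p = 0.498), the 24 h effect was 0.48 ± 0.11, and the interaction was 0.69 ± 0.15 (adjusted p = 0.0155), or 0.51 without that control. MT2A read 13.18, 13.14 and 13.17 against 12.99, 13.01 and 12.84 at 1 h, and 12.07, 12.51 and 12.41 against 12.82, 12.69 and 12.66 at 24 h. It showed the same order of groups, with an interaction of 0.62 ± 0.13 (adjusted p = 0.0131) and of 0.48 without control replicate 1 at 24 h.

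MT1G and MT1H had interactions of 0.65 and 0.55 (adjusted p = 0.0033 and 0.0478). The call of MT1H passed in 3 of the 12 fits without 1 array. In the list of 9 metallothionein and zinc export genes, 5 interactions were higher (these 4 and SLC30A1, a lost fall) and 0 lower, beside 1.00% and 1.20% of all genes. Of the 9, 8 were at an unadjusted p under 0.05 (2105 of all 11963 genes). The median was 0.55, beside -0.01 over all genes. In the controls 7 of the 9 fell over time (12.4% of all genes). The 4 rises at 24 h (4.30% of all genes rose) were 2 without control replicate 1 of that time. On the 12 arrays alone 1 rise at 24 h and 0 interactions were called. MT1 genes are close copies of each other, so 1 transcript may light several of these probe sets and the members are not separate evidence.

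**Figure D3:**
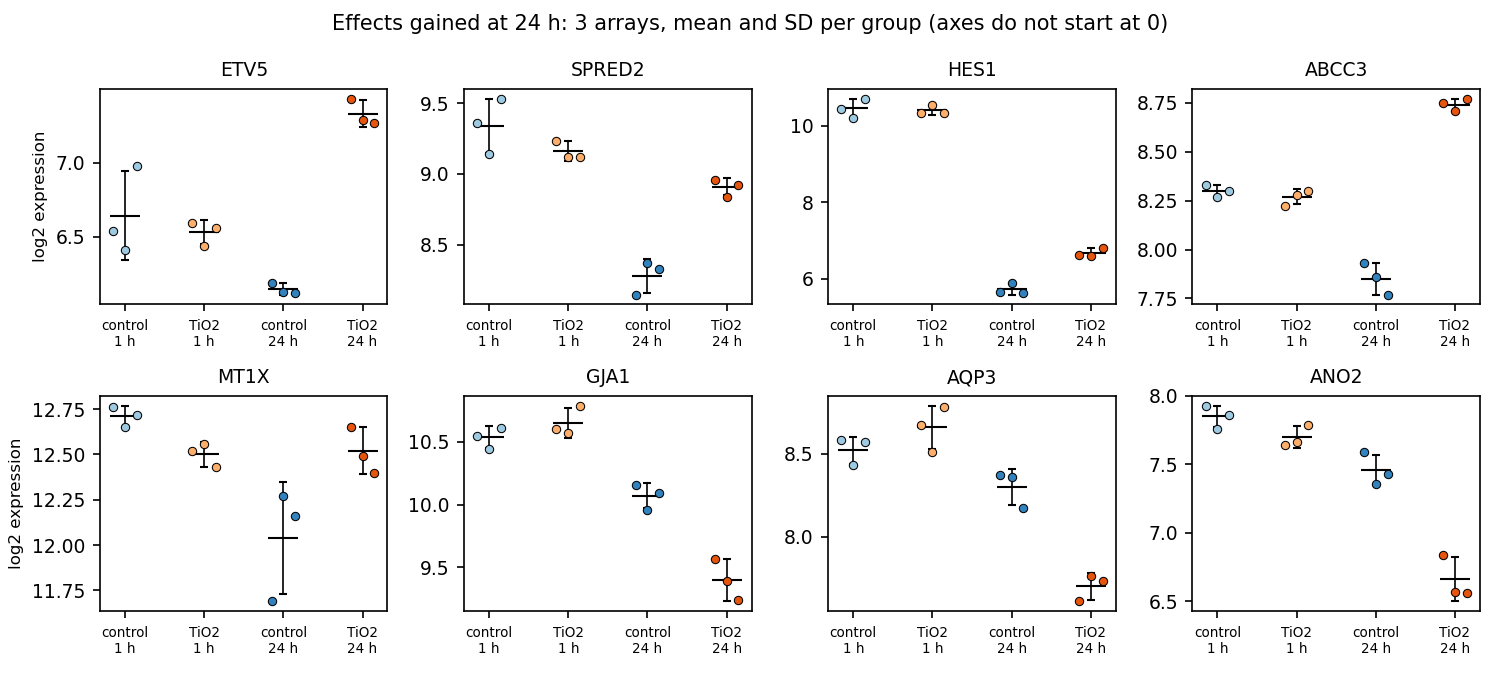
Log2 expression (y axis, own range for each gene, not starting at 0) of 8 genes with an effect gained at 24 h in the 4 groups; points are the 3 arrays, horizontal bars the mean and whiskers the SD. For ETV5, SPRED2, HES1, ABCC3 and MT1X the 24 h exposed arrays sit above the 24 h controls, and for GJA1, AQP3 and ANO2 below them.

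Gained falls included a gap junction gene and genes of channels and the cell surface. GJA1, the gap junction protein connexin 43, read 10.55, 10.44 and 10.61 in the 1 h controls and 10.60, 10.57 and 10.79 in exposed cells, and 10.16, 9.96 and 10.09 against 9.57, 9.39 and 9.24 at 24 h. The groups overlapped at 1 h and did not at 24 h, a 1.59-fold fall with an interaction of -0.78 ± 0.13 (limma adjusted p = 0.00143). AQP3, a water and glycerol channel of basal airway cells, read 8.58, 8.43 and 8.57 against 8.67, 8.51 and 8.78 at 1 h, and 8.37, 8.36 and 8.17 against 7.61, 7.76 and 7.73 at 24 h. It fell 1.52-fold at 24 h with an interaction of -0.73 ± 0.11 (adjusted p = 0.000335), but its 2 other probe sets above the median gave -0.18 and 0.05. ANO2, a calcium-activated chloride channel, read 7.93, 7.76 and 7.86 against 7.64, 7.66 and 7.79 at 1 h, and 7.59, 7.36 and 7.43 against 6.84, 6.57 and 6.56 at 24 h. The 24 h exposed arrays were the lowest of the 12, with a fall of 1.74-fold and an interaction of -0.65 ± 0.09 (adjusted p = 0.000228).

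The amino acid transporters SLC1A1, for glutamate and cysteine, and SLC7A11, which trades cystine for glutamate, had interactions of -0.70 ± 0.15 (limma adjusted p = 0.00965) and -0.39 ± 0.08 (adjusted p = 0.0129). MUC1, a membrane mucin, had one of -0.45 ± 0.08 (adjusted p = 0.00143) and a 24 h fall of 0.40. NPR3, the clearance receptor of natriuretic peptides, IGFBP3, a carrier of insulin-like growth factors, and TNNC1, the calcium-binding subunit of troponin, had -0.63, -0.67 and -0.66. CACNA2D3, an auxiliary calcium channel subunit, SNAPC1, needed to transcribe small nuclear RNA, and PAPOLG, a poly(A) polymerase, had -0.69, -0.55 and -0.57. IGFBP3 was called in 9 of the 12 fits without 1 array (not without control replicate 1 or 2 at 1 h or exposed replicate 3 at 24 h), PAPOLG in 7 (not without control replicate 2 or exposed replicate 3 at 1 h, nor control replicate 1 or exposed replicates 2 or 3 at 24 h), and the others in this paragraph in all 12.

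Markers of epithelium averaged lower in exposed cells at 24 h. The mean of the 8 measured was 8.79 to 8.85 in the 1 h controls and 8.74 to 8.81 in the 1 h exposed arrays. At 24 h it was 8.53 to 8.58 in controls against 8.20 to 8.36 in exposed arrays. Of these 8, 5 were called at 24 h (13.2% of all genes) and none in the interaction (2.20% of all genes). None of the 8 was thus a gained gene, and their relation to the gained falls was not tested. KRT8 had effects of -0.06 at 1 h and -0.50 at 24 h (limma adjusted p = 0.0102) and an interaction of -0.44 (adjusted p = 0.178). The 14 immune markers averaged 5.51 to 5.54 and 5.60 to 5.67 in unexposed and exposed 24 h arrays. Of 21 epithelial junction genes 1 (GJA1) and of 17 secretory and mucin genes 1 (MUC1) had a called interaction, beside 2.20% of all genes.

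The 8 reversed genes were higher at 1 h and lower at 24 h in 6 cases, and lower and then higher in 2. All 8 passed in all 12 fits without 1 array, but the class itself, which needs 3 calls, held 3 to 11 genes across those fits. It held 3 without exposed replicate 2 or 3 at 24 h, 4 without control replicate 2 at 1 h and 5 without control replicate 1 at 1 h or exposed replicate 1 at 24 h.

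SRF, the serum response factor that drives immediate early and actin genes, read 9.77, 9.84 and 10.00 in the 1 h controls and 10.64, 10.58 and 10.43 in exposed cells, then 8.84, 8.78 and 8.68 against 8.42, 8.55 and 8.44 at 24 h. The groups stood apart at both times, in opposite order. It rose by 0.68 ± 0.06 at 1 h, fell by 0.29 ± 0.06 at 24 h (limma adjusted p = 0.0047) and had an interaction of -0.97 ± 0.09 (adjusted p = 2.46e-07). ARID5B, a DNA-binding partner of a histone demethylase, read 10.32, 10.28 and 10.39 against 11.14, 10.91 and 11.20 at 1 h, and 9.90, 9.87 and 9.68 against 9.58, 9.50 and 9.56 at 24 h. It too switched order without overlap, with an interaction of -1.03 ± 0.11 (adjusted p = 7.13e-06).

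SGK1, a kinase that raises sodium uptake through the epithelial sodium channel, read 9.97, 9.92 and 9.78 against 10.32, 10.37 and 10.51 at 1 h, and 10.33, 10.74 and 10.58 against 10.26, 10.11 and 9.96 at 24 h. Controls rose by 0.66 with time while exposed cells fell by 0.29, an interaction of -0.94 ± 0.14 (limma adjusted p = 0.000532). STC2, a secreted glycoprotein induced by stress, read 10.34, 10.39 and 10.38 against 10.48, 10.61 and 10.65 at 1 h, and 11.43, 11.52 and 11.44 against 11.21, 11.23 and 11.16 at 24 h. Its 1 h rise was near the threshold (0.21 ± 0.06, limma adjusted p = 0.0487), and the interaction was -0.48 ± 0.08 (adjusted p = 0.00112). The other STC2 probe set, also above the median, gave -0.23. CDR2, DDX41, an RNA helicase, TENT5C, a poly(A) polymerase, and GPRC5C, an orphan receptor, reversed with interactions of -0.49, 0.44, -0.56 and 0.71, the last 2 below the median of the table.

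**Figure D4:**
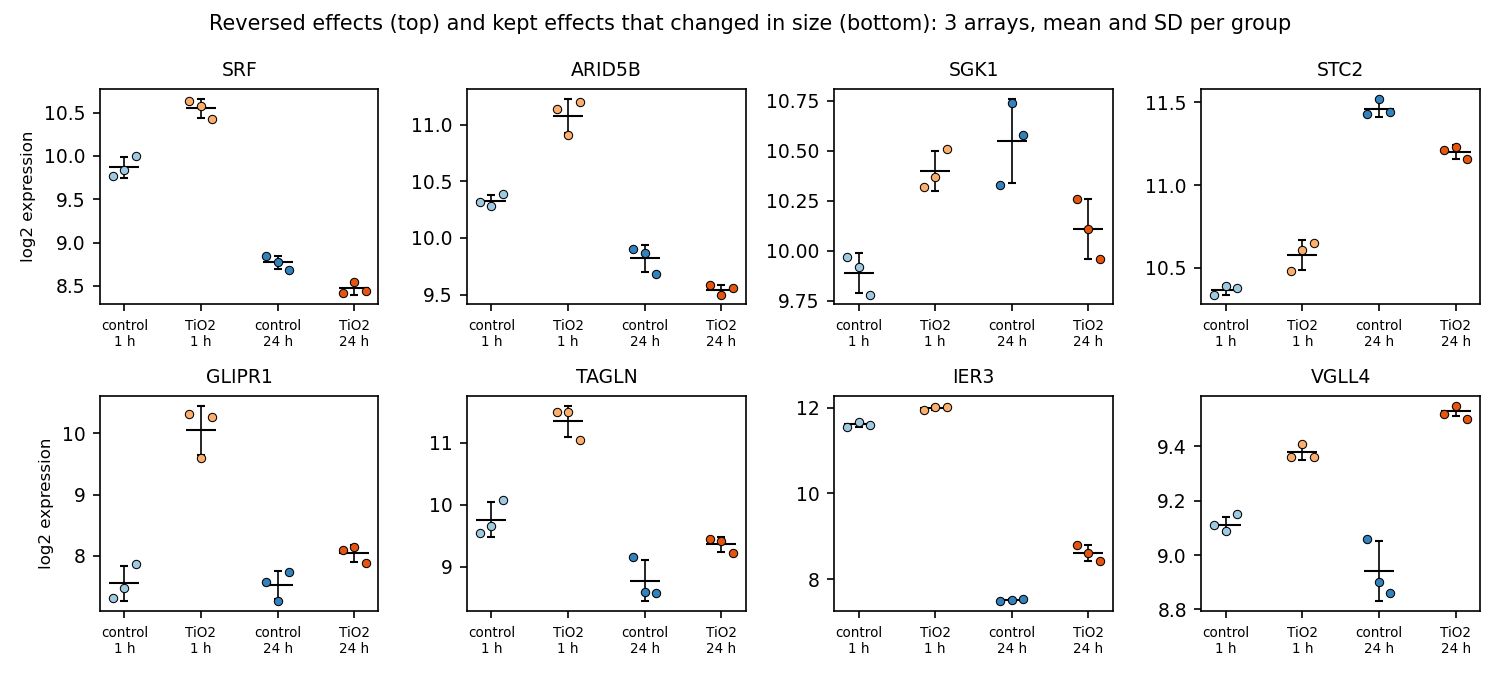
Log2 expression (y axis, own range for each gene, not starting at 0) of 4 reversed genes (top) and the 4 kept genes whose effect changed in size (bottom); points are the 3 arrays, horizontal bars the mean and whiskers the SD. SRF, ARID5B, SGK1 and STC2 are above the controls at 1 h and below them at 24 h; GLIPR1, TAGLN, IER3 and VGLL4 are above them at both times.

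Of the 32 kept effects, 19 were rises and 13 falls, and 4 rises changed in size. GLIPR1, a secreted protein of the CAP family, had the largest effect of any gene in the classes. It read 7.31, 7.47 and 7.87 against 10.31, 9.59 and 10.26 at 1 h, a 5.67-fold rise, and 7.57, 7.27 and 7.73 against 8.09, 8.15 and 7.88 at 24 h, a 1.43-fold rise. Exposed arrays were higher at both times without overlap, and the effect shrank by 1.99 ± 0.24 on the log2 scale (limma adjusted p = 2.19e-05, with -1.99 at its 1 other probe set above the median). TAGLN, an actin-binding protein, read 9.55, 9.65 and 10.08 against 11.49, 11.50 and 11.05 at 1 h, and 9.15, 8.59 and 8.57 against 9.45, 9.41 and 9.22 at 24 h. Its change in size was called (-1.0 ± 0.26, adjusted p = 0.0413) in 4 of the 12 fits without 1 array and in 3 of 7 other settings.

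IER3, an early gene that restrains cell death, grew in effect. It read 11.55, 11.66 and 11.60 against 11.94, 12.02 and 12.02 at 1 h, and 7.48, 7.51 and 7.53 against 8.80, 8.61 and 8.43 at 24 h. The 2.15-fold rise at 24 h came on a level far below that at 1 h, and the interaction was 0.72 ± 0.12 (limma adjusted p = 0.000837). VGLL4, which competes with YAP for TEAD factors, read 9.11, 9.09 and 9.15 against 9.36, 9.41 and 9.36 at 1 h and 9.06, 8.90 and 8.86 against 9.52, 9.55 and 9.50 at 24 h, with an interaction of 0.33 ± 0.07 (adjusted p = 0.0171). Both stood clear of the controls at both times.

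Kept rises without a called change included THBS1, thrombospondin, which frees TGF-beta from its latent form, with effects of 1.28 ± 0.17 and 0.57 ± 0.17 and an interaction of -0.71 (limma adjusted p = 0.126). Its 2 other probe sets above the median gave -1.38 and -1.20, and with the mean of all probe sets the interaction passed. CCN2, a YAP and TGF-beta target, had effects of 0.45 and 0.29, and TIPARP, a target and inhibitor of the aryl hydrocarbon receptor, had 0.33 and 0.54. DYNC1LI2, a light intermediate chain of dynein, and HNRNPL, a splicing factor, had interactions of -0.58 and -0.50 that did not pass, but passed without control replicate 1 at 24 h (-0.93 and -0.82). Kept falls were small. NUPR1 and DDIT3, a stress-response cofactor and the CHOP factor, fell by 0.28 and 0.38 at 1 h and by 0.46 and 0.21 at 24 h. IRF9, the DNA-binding part of the type I interferon complex, fell by 0.26 and 0.27. Kept genes numbered 15 without control replicate 1 at 1 h, 16 to 19 without 1 of the 24 h exposed arrays, 17 without control replicate 2 and 20 without exposed replicate 1 at 1 h, 55 and 63 without control replicates 2 and 3 at 24 h and 71 without exposed replicate 2 at 1 h.

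The 11 genes with only a difference between the times had their 1 h and 24 h effects on opposite sides of 0, each too small to pass. EFNA1, a ligand of Eph receptors, had an interaction of 0.39 (limma adjusted p under 0.05 in 5 of the 12 fits without 1 array) and COG5, of the Golgi tethering complex, one of -0.63 (4 of 12).

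Of 20 ATF4 and amino acid stress genes, the interaction was higher in 2 (DDIT4 and TXNIP) and lower in 2 (SLC7A11 and STC2), beside 2.20% of all genes called in either direction, and the list's median was -0.05. Among 8 targets of the aryl hydrocarbon receptor, a sensor of planar aromatic compounds, 4 rose at 24 h and 1 at 1 h, beside 4.30% and 1.74% of all genes. In that list 0 interactions passed in limma, with 2 at an unadjusted p under 0.05 (2105 of all 11963 genes). CYP1B1, its hydroxylase target, had effects of 0.60 at 1 h (adjusted p = 0.300) and 1.28 at 24 h (adjusted p = 0.00228) and an interaction of 0.67 (adjusted p = 0.303). The 4 rises became 2 without control replicate 1 at 24 h and 1 on the 12 arrays alone. Of 24 NRF2 antioxidant genes ABCC3 was higher and SLC7A11 lower (1.00% and 1.20% of all genes). Of 20 genes of ER chaperones 2 were higher (1.00% of all genes), MANF by 0.24 and SEC61B by 0.20, called in 3 and in 1 of the 12 fits without 1 array. In limma 0 interactions passed among 26 mitosis, 29 DNA replication, 24 oxidative phosphorylation and 16 p53 target genes, with 1, 5, 2 and 1 at an unadjusted p under 0.05.

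**Figure D5:**
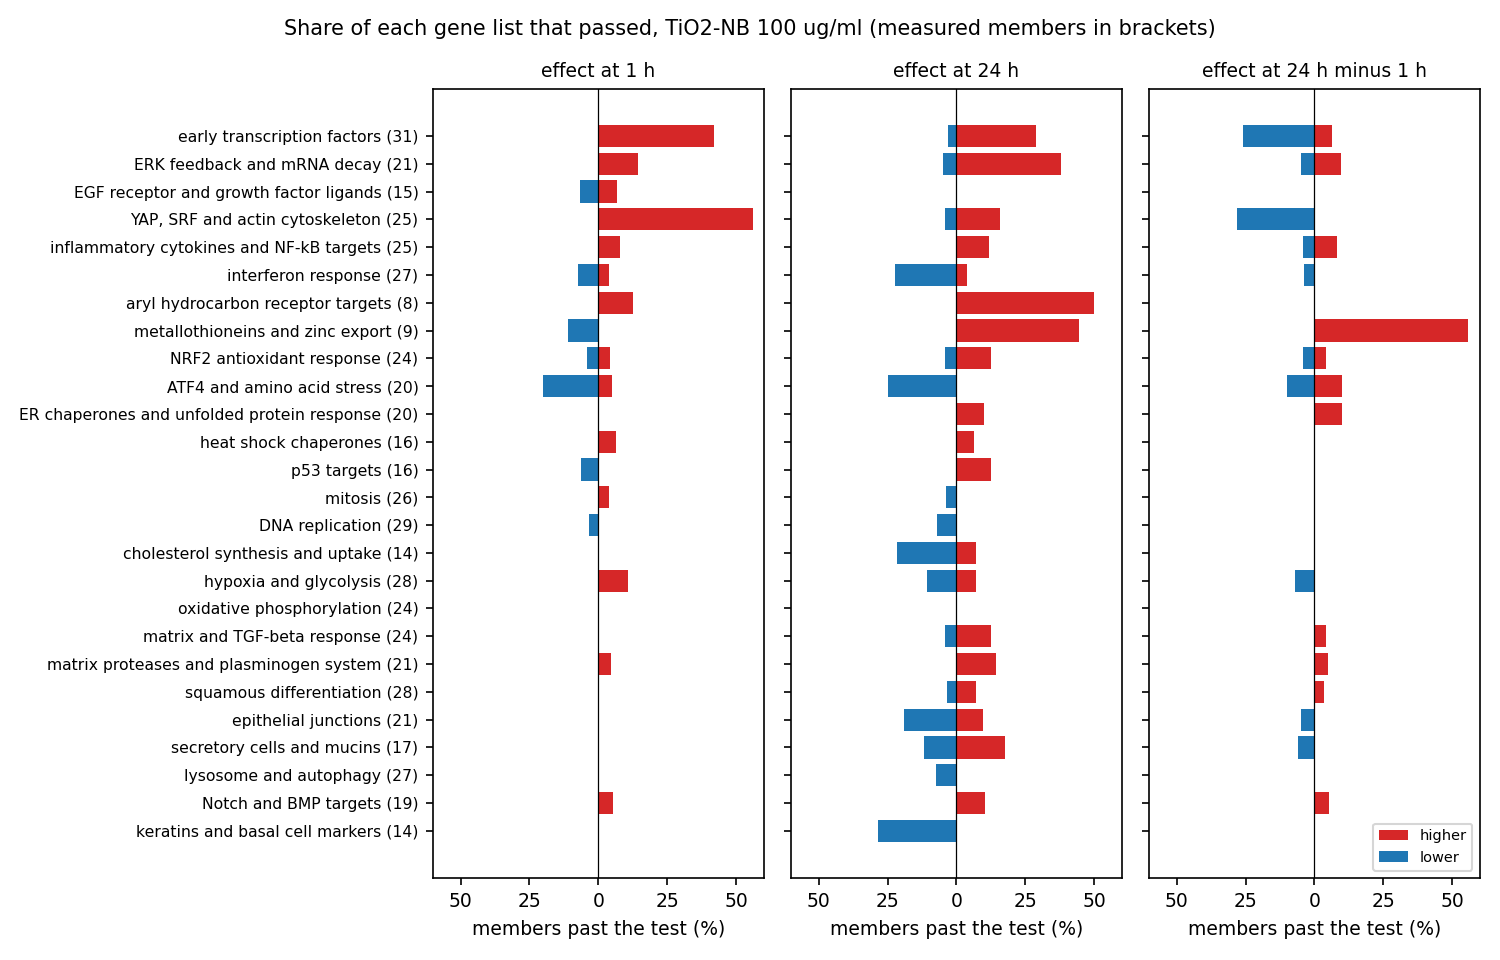
Percent of the measured members of each of 26 gene lists (rows, number measured in brackets) that passed at an adjusted p under 0.05, higher to the right in red and lower to the left in blue, for the effect at 1 h, the effect at 24 h and the effect at 24 h minus 1 h. YAP, SRF and actin genes stand out at 1 h (14 of 25 higher) and among the lower interactions (7), and metallothioneins among the higher ones (5 of 9). The lists were chosen with earlier results of these data known, and 1 transcript may light several metallothionein probe sets.

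The lower dose and the nanotubes placed these differences. The interaction of TiO2-NB at 10 ug/ml uses the same controls, and 2 genes were called in it (0.0167%), RAB3IL1 higher (0.00836%) and KLF7 lower (0.00836%). EGR3, NR4A1 and KLF7 had -0.73, -0.28 and -0.61 there, the last of which passed (limma adjusted p = 0.0215), and ETV5 and ABCC3 had 0.25 and 0.12. A contrast free of controls, the 100 minus 10 ug/ml difference at 24 h minus that at 1 h, was called in 37 genes (0.309%), 20 higher and 17 lower. It shares the 6 arrays of 100 ug/ml with the main comparison. ETV5 (1.05 ± 0.14 (SE), adjusted p = 0.000165), CHST15 (1.03), SPRED2 (0.93), HES1 (0.82) and ABCC3 (0.81) led the higher genes. FILIP1L (-1.20), FOSB (-1.14), EGR3 (-1.13), NR4A1 (-1.07) and CITED2 (-0.96) led the lower ones. By class, 8 of the 45 lost rises, 4 of the 87 gained falls and 3 of the 6 reversed rises were lower in it. Of the 101 gained rises 13 were higher, and of the 7 lost falls 2. The shared arrays helped to set the classes, so these counts are partly built in and are not independent support.

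MWCNT at 100 ug/ml had an interaction called in 80 genes (0.669%), 14 higher and 66 lower, again with the same controls. EGR3, FILIP1L, GLIPR1 and SRF had -2.46, -1.89, -2.21 and -0.85 with MWCNT, beside -1.85, -1.79, -1.99 and -0.97 with TiO2-NB. ETV5, ABCC3, SPRED2 and GJA1 had 0.01, -0.12, 0.01 and -0.08, beside 1.30, 0.92, 0.81 and -0.78. The contrast of the particles, TiO2-NB minus MWCNT at 24 h minus the same at 1 h, uses no control array and was called in 222 genes (1.86%), 124 higher (1.04%) and 98 lower (0.819%). It shares its TiO2-NB arrays with the main comparison, which set the classes. Counts by class are therefore partly built in and are not independent support. In this contrast 47 of the 101 gained rises were higher and 28 of the 87 gained falls lower, among them ETV5 (1.29 ± 0.14 (SE), adjusted p = 9.77e-06), ABCC3 (1.04, adjusted p = 8.63e-09) and ANO2 (-0.78, adjusted p = 4.05e-05). Of the 45 lost rises 2 were lower in it and 0 higher. For EGR3 it was 0.61 (adjusted p = 0.183), for NR4A1 0.49 (0.0575), for FILIP1L 0.09 (0.84) and for SRF -0.12 (0.464): a difference between the particles was not shown for these, which does not show that they act alike. STC2 was the reversed rise that did differ (-0.54, adjusted p = 0.000522), with an interaction of 0.07 with MWCNT. Metallothioneins did not pass in it: MT1X had 0.54 (adjusted p = 0.0593) and MT1G 0.44 (adjusted p = 0.0525).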

How the data were processed

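RNA of 30 cultures was hybridised to 30 one-colour Affymetrix arrays, 3 per group. The deposited values are log2 intensities of 22277 probe sets, made by the authors with RMA per the submitters' processing notes (background correction, quantile normalization and probe summary; version not given in the sources used here). Quantile normalization gives the arrays nearly equal medians, so a shift of all genes cannot be seen. Depth has no meaning here, and 3 arrays per group limit the precision. Of the probe sets, 19064 carry 1 platform symbol, 1043 several and 2108 none, and 62 are controls. Of those with 1 symbol, 19052 were found in the RefSeq gene table by gene ID. For each of 11963 genes the probe set brightest on average across all 30 arrays stood for it, without a filter on dim genes.

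limma 3.58.1 (R 4.3.3) fitted 10 group means (20 residual and 3.96 prior degrees of freedom), with Benjamini-Hochberg adjustment over all genes and a threshold of 0.05. Fits were tested on simulated data. Genes were named by size of the interaction within each class (highest group mean above the median of the table, arrays not overlapping at a called time, for lost, gained and reversed genes), with up to 4 members per list and the top genes of the dose and particle contrasts. Genes given only in counts of a list or as examples of calls that did not pass fall outside this rule and were chosen after their values were seen, as were the levels of markers, RND3's and PELO's arrays and the promoter stretches. Members and lists were chosen with earlier results of these data known. Alternatives were array weights, cyclic loess, a dim filter, the mean of probe sets, the 12 arrays alone, a replicate block, a variance trend with robust prior (limma with statmod 1.5.0) and each array left out.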

Additional observations from a re-analysis of the deposited data

Results flagged for a closer look

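The test of the difference between the times set apart 120 genes with a higher and 143 with a lower TiO2-NB effect at 24 h than at 1 h. Among them, 8 were called at both times in opposite directions: ARID5B (-1.03), SRF (-0.97), SGK1 (-0.94), TENT5C (-0.56), CDR2 (-0.49) and STC2 (-0.48) went from higher to lower, and GPRC5C (0.71) and DDX41 (0.44) from lower to higher. The test of the difference between the particles over time was called in 222 genes and that between the TiO2-NB doses over time in 37. Groups of 3 arrays are too small for a test of outlying samples.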

How the results depend on the processing

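Most directions held and the counts moved. With array weights there were 286 higher and 348 lower interactions, 149 lost, 408 gained, 19 reversed and 59 kept genes, and 3081 genes called at 24 h. That setting gave control replicate 3 at 24 h a weight of 4.869, beside 0.308 and 0.408 for replicates 1 and 2. Its 24 h control mean thus leans on 1 array. Cyclic loess gave 4 reversed genes and 815 called at 24 h. The filter on dim genes, which tests fewer genes, gave 14 reversed and 58 kept genes. Higher interactions then made 28.2% in place of 45.6%, and lower ones numbered 216 in place of 143. Fitted on the 12 arrays alone, with fewer samples for the variance, there were 18 higher and 28 lower interactions, 22 lost, 18 gained, 0 reversed and 1 kept genes, 54 called at 1 h and 187 called at 24 h. For the dim filter and the other settings the cause was not tested. Leaving out 1 array gave 58 to 179 higher and 79 to 252 lower interactions, 33 to 159 lost, 81 to 271 gained, 3 to 11 reversed and 15 to 71 kept genes, 143 to 374 called at 1 h and 718 to 1753 called at 24 h. The 1 h calls were 144, 143 and 145 without control replicates 1 and 2 and exposed replicate 3 of that time, and the 24 h calls 876, 884 and 718 without control replicate 1 and exposed replicates 1 and 3 of that time. The higher interactions were also 75 without control replicate 1 at 1 h and 73 without control replicate 2 at 24 h, and the lower ones 85 and 87 without exposed replicate 3 at 1 h and at 24 h. Of the named genes' interactions, CCDC85B turned to -0.03 with the mean of all probe sets, and no other named gene changed sign under these alternatives. Replicate numbers are shared by the groups, but same-numbered arrays deviated together only in part (correlations -0.151 to 0.437), so the numbers were not taken as pairs. With the replicate block there were 89 higher and 130 lower interactions, 48 lost, 149 gained, 6 reversed and 35 kept genes.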

Other observations

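The keratin and interferon response genes that were called at 24 h mostly had no called difference from 1 h. Of 14 keratins and basal cell markers, 4 fell at 24 h, beside 8.89% of all genes: KRT19 by 0.55, KRT8 by 0.50, KRT18 by 0.30 and KRT5 by 0.24 (limma, adjusted p under 0.05). The 4 became 1 without control replicate 2 at 24 h and 1 on the 12 arrays alone. None of the 14 interactions passed in limma, and 3 had an unadjusted p under 0.05. Of 27 interferon response genes, 6 fell at 24 h (IFIT1, IFI27, ISG15, IRF7, IRF9 and USP18), beside the same 8.89%, and 1 rose, beside 4.30%. The 6 falls became 2 without control replicate 1 at 24 h, 3 without any 1 of the 24 h exposed arrays, 2 after cyclic loess and 0 on the 12 arrays alone.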
